A study of Mus musculus with 6 samples.

Results

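The 10 genes described here encode contractile proteins of smooth muscle cells, myofibroblasts or both. They are Acta2, Actg2, Myh11, Myl9, Tagln, Cnn1, Cald1, Tpm1, Tpm2 and Actn1, taken by name, and each matched 1 row among the 34745 genes of the deposited table. All 10 passed the filter on low counts and are among the 13407 genes tested. RNA-seq was performed on NOR-10, a single established line of mouse skeletal muscle fibroblasts, in a control group that received PBS and a D-gal group that received 20 mg/mL D-galactose for 3 days, with 3 libraries in each. The labels name no transgene and no further agent, and they do not say whether the replicates came from separate cultures, so the p-values measure only the spread between these libraries, which may be technical. A control library held 16876087 to 20830349 counts and a D-gal library 13759108 to 15157064.

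Smooth muscle and myofibroblasts build contractile bundles from actin filaments and bipolar filaments of myosin II. Force starts when the regulatory light chain of myosin is phosphorylated, while tropomyosin, caldesmon, calponin and transgelin line the actin filament and α-actinin ties filaments together. A fibroblast that turns into a myofibroblast raises α-smooth muscle actin, the product of Acta2, and transcription of many of these genes is driven by serum response factor (SRF) with its actin-sensing cofactors of the MRTF family. Bulk RNA-seq gives an average over the cells of a culture, so a larger number of cells expressing a gene and more of its RNA in each cell cannot be told apart.

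SRF binds the CArG box, a motif of 10 bases, and factors of the TEAD family bind the MCAT motif CATTCC, so the RefSeq promoters of the contractile genes (GRCm38.p6, from 250 bases before to 50 bases after each start) were searched on both strands. Windows were held for 7 of the 10 genes, and not for Actg2, Tagln and Myh11, which all rose with D-gal. A full CArG box lay in the window of 1 of the 7, Myl9, and in 1.81% of all 27025 genes with a window. A CArG-like motif, in which a single base of the central A/T stretch is G or C, lay in 2 of the 7, Acta2 and Myl9, and in 9.69% of all genes. MCAT lay in 3 of the 7, Acta2, Tpm1 and Cald1, and in 16.6% of all genes. None of these motifs lay in the windows of Cnn1 and Actn1, which also rose, or of Tpm2, which did not pass the test. A full CArG box was also found for 3 of 14 other listed genes of the same families or filament systems, Actg1, Myl6 and Cnn2. The sequences of Acta2, Myl9 and Actg1 are shown 5′ to 3′ on the strand of the gene, with the motif in capitals, for Acta2 and Myl9 because these genes rose with D-gal, and for Actg1 as a cytoplasmic actin with a full CArG box. Of the 3 broadly expressed genes with a full box, Cnn2 was called higher by 0.09 on the log2 scale, a call lost with any library left out. Actg1 and Myl6 did not pass the test.
Acta2 CArG-like, 84 to 75 bases before the start: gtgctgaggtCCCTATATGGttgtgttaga
Acta2 CArG-like, 34 to 25 bases before the start: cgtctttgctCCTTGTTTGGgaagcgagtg
Acta2 MCAT on the opposite strand, 146 to 141 bases before the start: gcagaacagaGGAATGcagtggaaga
Myl9 CArG box, 161 to 152 bases before the start: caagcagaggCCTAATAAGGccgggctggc
Actg1 CArG box, 90 to 81 bases before the start: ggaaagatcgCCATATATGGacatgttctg
The Acta2 stretches lie at chr19:34255438-34255467, chr19:34255388-34255417 and chr19:34255504-34255529 on the minus strand, upstream of the RefSeq start but inside an exon of Acta2 in GENCODE M21. They lie outside the deposited Acta2 locus, which ends at 34255336. The Myl9 stretch (chr2:156775293-156775322, plus strand) and the Actg1 stretch (chr11:120348566-120348595, minus strand) lie outside every annotated gene. A match describes the letters of the window, and binding of any factor was not measured.

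Expression of 7 of the 10 contractile genes was higher in the D-gal group than in the control group, that of 3 did not pass the test, and none was lower. The quasi-likelihood test of edgeR was used, with p-values adjusted by Benjamini-Hochberg over all genes and called when under 0.05. By the same rule 34.8% of all genes tested were called, 16.9% higher and 17.8% lower. The genes that rose were Acta2, Actg2, Myh11, Myl9, Tagln, Cnn1 and Actn1, and those that did not pass were Cald1, Tpm1 and Tpm2. In each of the 7, every D-gal library lay above every control library, which held for 24.1% of all genes tested, and 49.1% were separate in either direction. The rises were small for most of them. Only Myh11 also met the study's criterion of a log2 fold change of at least 1, and was differentially expressed in the sense of the study's methods, as 4.21% of all genes were, 2.37% upward and 1.83% downward. The median log2 fold change was 0.36 over the 10 genes and 0.0036 over all genes tested. The genes together held 0.566% to 0.617% of the counts of a control library and 0.707% to 0.74% of those of a D-gal library. Without Acta2 these shares were 0.345% to 0.404% and 0.412% to 0.416%, so most of the gain was in Acta2.

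**Figure D1:**
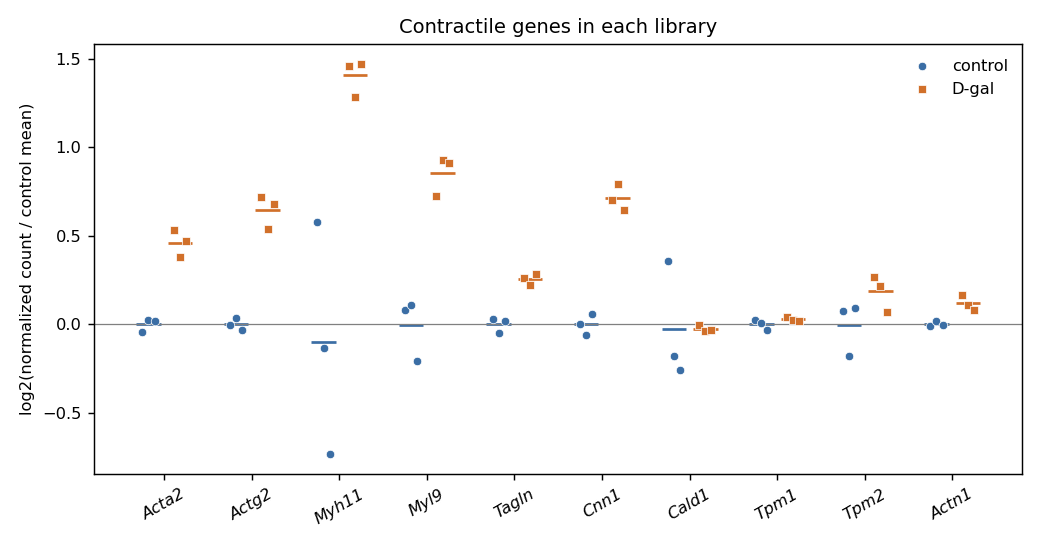
Normalized counts of the 10 contractile genes in each library, as log2 of the ratio to the mean of the control group (vertical axis). Circles are the 3 control libraries, squares the 3 D-gal libraries and horizontal lines the mean of the plotted values. In 7 genes all squares lie above all circles, whereas in Cald1, Tpm1 and Tpm2 the groups overlap, and control replicate 1 stands above the rest in Cald1.

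Acta2 (ENSMUSG00000035783, chromosome 19, 34241090 to 34255336, minus strand), the defining marker of myofibroblasts, was by far the most abundant member. Its TMM-normalized count, which is the count divided by the scaled library size and multiplied by the mean of those sizes, was 36100, 37872 and 37760 with PBS against 53962, 48396 and 51639 with D-gal. The groups stood well apart, with coefficients of variation of 2.66% (PBS) and 5.45% (D-gal). Acta2 rose by 0.46 on the log2 scale (standard error, SE, 0.04, adjusted p = 0.000118 in edgeR's quasi-likelihood test), a rise of 37.8%. By count, Acta2 ranked between 23 and 26 among all genes of a library with PBS and between 10 and 12 with D-gal. Actg2 (ENSMUSG00000059430, chromosome 6, 83512905 to 83536265), the γ-actin of visceral smooth muscle, was much rarer. Its normalized counts were 422, 433 and 413 with PBS against 695, 614 and 676 with D-gal. Actg2 rose by 0.65 on the log2 scale (SE 0.07, adjusted p = 0.000256 in the same test). Little of the sequence of these 2 genes occurs in other annotated genes, 1.39% of the words of 31 bases for Acta2 and 1.21% for Actg2. Whether reads were exchanged between actins was not tested.

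Myh11 (ENSMUSG00000018830, chromosome 16, 14194527 to 14291408), the myosin heavy chain restricted to smooth muscle, rose most in relative terms and was close to absent in absolute terms. Raw counts were 23, 15 and 8 with PBS against 33, 30 and 31 with D-gal, although the D-gal libraries were smaller. Myh11 rose by 1.38 on the log2 scale (SE 0.32, adjusted p = 0.0117 in the same edgeR test), and its 95% confidence interval from 0.65 to 2.12 was wide at these counts. Under a filter of at least 10 counts in every library Myh11 was not tested, and then no contractile gene was differentially expressed. Myl9 (ENSMUSG00000067818, chromosome 2, 156775420 to 156781658), the regulatory light chain of smooth muscle myosin, showed the strongest rise among the abundant genes. It had 4016, 4095 and 3291 normalized counts with PBS, where replicate 3 was the lowest, against 6277, 7241 and 7141 with D-gal. Myl9 rose by 0.86 on the log2 scale (SE 0.09, adjusted p = 0.000251 in the same edgeR test), a rise of 81.1% and larger than the change of 96.3% of the genes tested.

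Among the proteins that line the actin filament, transgelin and calponin rose while caldesmon and both tropomyosins did not pass the test. Cnn1 (ENSMUSG00000001349, chromosome 9, 22099281 to 22109630), the calponin of differentiated smooth muscle, had 395, 379 and 411 normalized counts with PBS against 642, 684 and 617 with D-gal. Cnn1 rose by 0.71 on the log2 scale (SE 0.07, adjusted p = 0.000149 in the same edgeR test), and no word of its sequence was found in another gene. Tagln (ENSMUSG00000032085, chromosome 9, 45929628 to 45936058), which encodes transgelin, also named SM22α, had 5894, 5595 and 5857 normalized counts with PBS against 6922, 6735 and 7051 with D-gal. Tagln rose less, by 0.26 on the log2 scale (SE 0.03, adjusted p = 0.00086 in the same edgeR test). The exons of Tagln overlap 2 genes on the other strand, Pcsk7 and Gm48529, over 1349 bases, and the sources used here do not say whether counting used the strand, so its level is uncertain. Pcsk7 had 565 to 740 counts per library.

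Cald1 (ENSMUSG00000029761, chromosome 6, 34598500 to 34775473), which encodes the actin-binding protein caldesmon, gave a comparison that turned on a single library. It had 24065, 16564 and 15660 normalized counts with PBS against 18731, 18233 and 18356 with D-gal. Control replicate 1 lay above all 3 D-gal libraries and the other controls below them, with coefficients of variation of 24.6% (PBS) and 1.41% (D-gal). The log2 fold change was -0.03 (95% confidence interval -0.35 to 0.30, adjusted p = 0.912 in the same edgeR test). Without control replicate 1 it was 0.19 with an adjusted p of 0.00624, and Cald1 then joined the genes that rose, with 8 of 10 past the threshold. Tpm1 (ENSMUSG00000032366, chromosome 9, 67022590 to 67049406), the α-tropomyosin, was steady in all libraries. Its normalized counts were 17307, 17135 and 16653 with PBS against 17498, 17321 and 17227 with D-gal. The 95% confidence interval of its log2 fold change of 0.03 ran from -0.03 to 0.09 (adjusted p = 0.464 in the same edgeR test), below the rise of Acta2. Tpm2 (ENSMUSG00000028464, chromosome 4, 43514711 to 43523765), the β-tropomyosin, had 2336, 1959 and 2361 normalized counts with PBS against 2669, 2580 and 2332 with D-gal, so that the groups overlapped. Its log2 fold change was 0.19 (SE 0.08, adjusted p = 0.107 in the same edgeR test). The counts are sums over transcripts, 21 annotated ones for Tpm1 and 18 for Cald1, and the smooth muscle and the broadly expressed isoforms of these genes cannot be told apart in them.

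Actn1 (ENSMUSG00000015143, chromosome 12, 80167542 to 80260371), the α-actinin that crosslinks actin filaments in stress fibers and adhesions, rose slightly. It had 14015, 14308 and 14076 normalized counts with PBS against 15870, 15209 and 14928 with D-gal, so the groups were separate. Actn1 rose by 0.12 on the log2 scale (SE 0.03, adjusted p = 0.018 in the same edgeR test), a rise of 8.51%. Without control replicate 3 its adjusted p was 0.0545. Genes on the other strand overlap its exons, and 8.50% of its sequence words occur elsewhere. For each of the 10 genes the two-sided exact permutation test of the log2 counts could give no p below 0.1 with 3 libraries against 3, and it gave 0.1 for the 7 genes that rose, 0.2 for Tpm1, 0.3 for Tpm2 and 1 for Cald1.

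Levels of different genes were compared as normalized counts per 1000 bases of distinct annotated exons. In the control group Acta2 stood at 16960 ± 452 (SD, n = 3), followed by Myl9 at 3271 ± 382, Tagln at 2909 ± 82.0, Tpm1 at 2626 ± 52.3, Actn1 at 2554 ± 28.0 and Cald1 at 1558 ± 383. Tpm2 at 763 ± 77.4, Actg2 at 271 ± 6.52 and Cnn1 at 144 ± 5.92 came next, and Myh11 was last at 1.77 ± 0.799. Neighbours in this order had separate ranges except Myl9 and Tagln and except Tpm1 and Actn1. In the D-gal group Acta2 stood at 23375 ± 1273 (SD, n = 3), Myl9 at 5926 ± 456 and Tagln at 3472 ± 79.9, each with a separate range, and Actn1 and Tpm1 had changed places with ranges that overlapped barely. The order depends on the lengths. The deposited loci of Acta2, Tagln, Cnn1, Myh11 and Actn1 differ from those in GENCODE M21, the source of the exon lengths. By the deposited FPKM, which rest on other lengths, Acta2 was again first, but Tagln (214 ± 6.10 FPKM, SD, n = 3) and Actn1 (204 ± 2.23) lay above Myl9 (106 ± 12.6) in the control group. With D-gal Tagln stood at 262 ± 5.80 FPKM, Actn1 at 227 ± 6.46 and Myl9 at 197 ± 15.8 (SD, n = 3). Cnn1 had a higher mean FPKM than Actg2 in both groups, with ranges that overlapped.

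**Figure D2:**
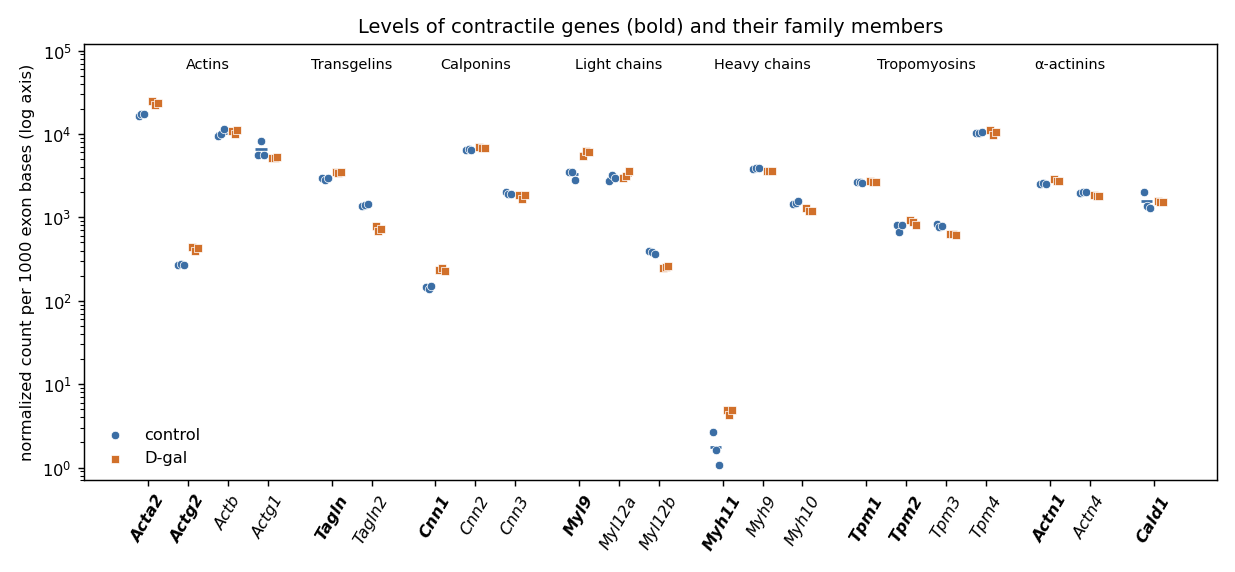
Normalized counts per 1000 exon bases on a log axis for the contractile genes (bold names) and the broadly expressed genes of their families, with a circle for each control library, a square for each D-gal library and a line for the mean of each group. Acta2 is the highest actin gene in every library, while Cnn1 and Myh11 lie far below Cnn2, Cnn3, Myh9 and Myh10.

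Apart from Cald1, for which no relative was listed, the contractile genes belong to families with members that most cells use in the cytoskeleton. Of 15 genes listed from these families or filament systems, Tagln3 and Myh14 had at most 6 counts in any library and were not tested. Of the 13 tested, the same edgeR test called 1 higher and 6 lower. Over all genes tested it called 16.9% higher and 17.8% lower. The median log2 fold change of the 13 genes was -0.13. Tagln2, the broadly expressed transgelin, fell most, from 2942 ± 52.6 to 1530 ± 118 normalized counts (SD, n = 3), or by 0.94 on the log2 scale (SE 0.06, adjusted p = 1.75e-05 in the same edgeR test). Myl12b, a non-muscle regulatory light chain, fell by 0.59, Tpm3 by 0.36, Myh10 by 0.29, Myh9 by 0.13 and Actn4 by 0.12 on the log2 scale. Cnn2 was called higher by 0.09 (adjusted p = 0.0332 in the same edgeR test), but not with DESeq2 (0.066), without a filter on low counts (0.0671), with the replicate block (0.0648) or with any library left out (0.055 to 0.0862). The log2 fold change of Actb, which encodes β-actin, was 0.05 (adjusted p = 0.66 in the same edgeR test). That of Actg1, which encodes cytoplasmic γ-actin, was -0.33 (adjusted p = 0.0978), with 15015, 22053 and 14998 normalized counts with PBS, where replicate 2 was high, against 13762, 13768 and 13914 with D-gal. Several of these genes share words of 31 bases with other annotated genes and are therefore uncertain in level. The shared part was 40.2% for Actg1, 32.0% for Cnn3, 27.0% for Tpm3, 26.0% for Myl12b and 23.6% for Actb. It was 22.9% for Myl12a and 19.97% for Tpm4. The gene sharing most was a pseudogene for Actg1 and Tpm4, and a protein-coding gene for Tpm3, Myl12b, Myl12a and Actb.

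The share of each family held by the contractile genes was computed in every library from counts per exon base. The share of Tagln among the transgelins was 68.1%, 66.5% and 67.2% with PBS against 81.4%, 83.2% and 82.9% with D-gal, a difference of 15.3 percentage points that rests on the fall of Tagln2 as well as on the rise of Tagln. The total of the transgelin family was 4325 ± 78.6 with PBS and 4209 ± 118 with D-gal, in normalized counts per 1000 bases (SD, n = 3). The share of Myl9 among the regulatory light chains rose from 49.5% ± 3.22 to 62.9% ± 1.65 (SD, n = 3), and the total of this family was higher by 0.51 on the log2 scale. Acta2 and Actg2 together held 50.6% ± 1.64 of the actin family with PBS and 60.02% ± 0.782 with D-gal (SD, n = 3). The shares depend on the lengths. By the deposited FPKM the actin difference was 6.61 percentage points against 9.39 here, and that of the light chains 14.4 against 13.4. Actn1 held 56.3% ± 0.362 and 60.3% ± 0.258 of the α-actinins, Cnn1 1.68% ± 0.0711 and 2.66% ± 0.178 of the calponins, and Myh11 0.033% ± 0.0155 and 0.0976% ± 0.00623 of the myosin heavy chains (SD, n = 3). Tpm1 and Tpm2 together held 23.4% ± 0.491 and 24.3% ± 0.997 of the tropomyosins (SD, n = 3). A share moves with the paralogues as well as with the contractile genes. Actn4 fell, and the total of the α-actinins changed by 0.018 on the log2 scale. The share of Actg1 was 19.1% ± 3.66 with PBS, with 23.2% in control replicate 2, and 13.1% ± 0.611 with D-gal (SD, n = 3). In 6 of the 7 families the groups did not overlap, with p = 0.1 in the two-sided exact permutation test. That is the smallest p that 3 against 3 allows, and it became 0.117 after adjustment over the 7 families. The 6 are the families of the genes that rose, and the shares reuse their counts, so they are no separate support. Of single genes tested, 49.1% were separate in either direction. For the tropomyosins the groups overlapped and the exact p was 0.3.

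**Figure D3:**
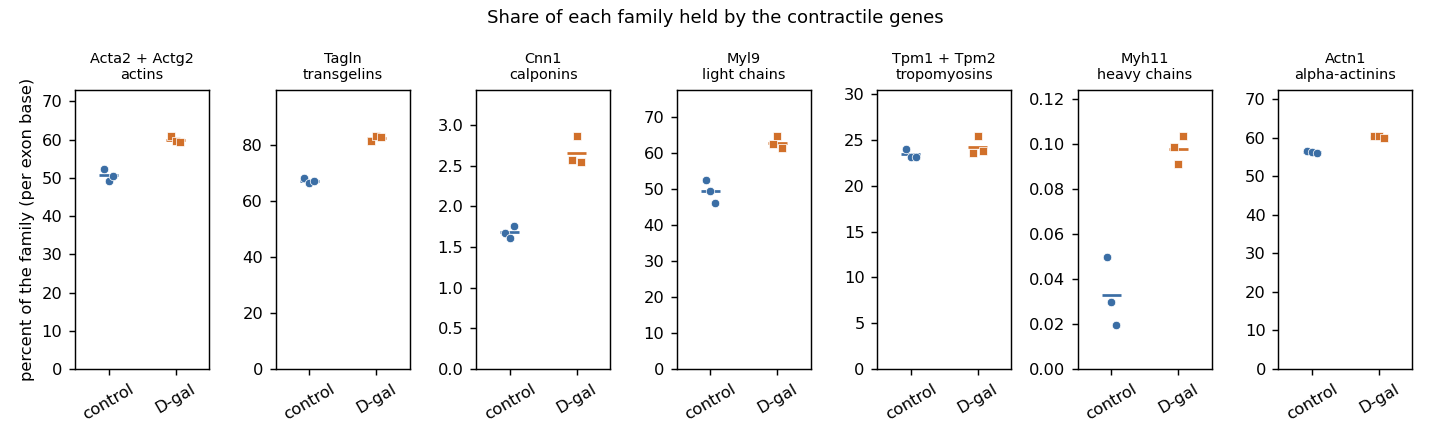
Percent of each family held by the contractile genes, from counts per exon base, with a separate vertical axis from 0 for each family. Circles are control libraries, squares D-gal libraries and lines the group means. The groups are separate in 6 families and overlap in the tropomyosins.

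Other listed genes of the smooth muscle apparatus moved in both directions. Of 17 listed, 14 were tested, of which the same edgeR test called 6 higher and 2 lower, with a median log2 fold change of 0.22. The shares over all genes tested were 16.9% higher and 17.8% lower. Smtn, which encodes the actin-binding protein smoothelin, rose by 0.34 (SE 0.03) with 2129 to 2218 normalized counts under PBS against 2749 to 2773 under D-gal. Lmod1, an actin filament nucleator of smooth muscle, rose by 0.57 (SE 0.08), with 364 to 410 normalized counts under PBS against 558 to 623 under D-gal. Itga8, the integrin subunit α8 found in smooth muscle and myofibroblasts, rose by 1.27 (SE 0.16) at low levels, with 38.4 to 54.5 normalized counts under PBS against 106 to 116 under D-gal. These 3 genes were named for the smallest p-values, and exons of Smtn and Itga8 overlap genes on the other strand, which had at most 8 counts. The genes that fell were Des, which encodes the intermediate filament protein desmin (-0.78, 26 to 67 counts per library), and Pgm5, a phosphoglucomutase-related protein of adherens junctions (-1.59). Des was not called with DESeq2 (adjusted p = 0.0704), nor Pgm5 without control replicate 2 (adjusted p = 0.0524 in the same edgeR test). The log2 fold change of Pgm5 ran from -2.08 to -1.19 with each library left out. Under a filter of at least 10 counts in every library, 12 genes of this list were tested, with 5 called higher and 1 lower. Mylk, the kinase that phosphorylates the regulatory light chain, had a log2 fold change of 0.06 (adjusted p = 0.701).

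Among 16 regulators of light chain phosphorylation, 4 were higher and 7 lower, against 16.9% and 17.8% of all genes at the same threshold. The median log2 fold change was -0.06. The 4 higher calls became 2 without control replicate 2, D-gal replicate 2 or D-gal replicate 3. Among the genes with the smallest p-values, which moved in both directions, were Calm2 (log2 fold change -0.32, SE 0.03) and Calm3 (-0.34, SE 0.04), which encode calmodulin, the calcium sensor that activates the light chain kinase. Calm2 shares 18.1% of its sequence words with other genes and is uncertain. In the list of 18 regulators and targets of SRF and MRTF, 17 were tested, and 7 were higher and 3 lower. Their median log2 fold change was 0.14, and over all genes tested 16.9% were higher and 17.8% lower. Srf itself had a log2 fold change of 0.03 (adjusted p = 0.559), and Myocd, the cofactor of SRF particular to muscle, had 0 to 4 counts under PBS, 3 to 7 under D-gal, and was not tested. Mrtfa, listed as Mkl1 in the deposited table, rose by 0.60 (SE 0.06), with 4581 to 5325 normalized counts under PBS against 7227 to 7876 under D-gal. Klf4, a factor known to repress smooth muscle genes, fell by 0.93 (SE 0.05), with 1921 to 1959 normalized counts under PBS against 959 to 1075 under D-gal. Ccn1, a secreted matricellular protein and target of MRTF and YAP, listed as Cyr61, rose by 0.31 (SE 0.03), whereas Ccn2, listed as Ctgf, fell by 0.25 (SE 0.05). Tgfb1i1, a further target that passed the test, has a second row in the table with 999 counts in control replicate 3 and at most 27 elsewhere, so its rise is uncertain.

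Of 19 genes of TGF-β signalling, the best known inducer of Acta2 in fibroblasts, 4 were higher and 5 lower. Over all genes tested, 16.9% were higher and 17.8% lower. The median log2 fold change of the 19 genes was -0.0031. Tgfb2, a ligand, rose by 0.60 (SE 0.05), whereas the receptor gene Tgfbr1 fell by 0.54 (SE 0.04) on the log2 scale. Myofibroblast markers outside the contractile apparatus, mostly genes of matrix proteins, were mostly lower with D-gal. Of 15 listed, 13 were tested, 2 were higher and 7 lower, against the same shares over all genes. Their median log2 fold change was -0.66. Fn1, which encodes fibronectin, fell by 1.27 (SE 0.04), with 110121, 114766 and 111351 normalized counts under PBS against 48768, 43752 and 47184 under D-gal. Col3a1 fell by 1.18 (SE 0.05) and Col1a2, a chain of type I collagen, by 0.97 (SE 0.04). The 2 that rose were Pdgfrb, by 0.19, and Postn, by 0.10, and Postn was not called without D-gal replicate 3 (adjusted p = 0.0573 in the same edgeR test). A test of the difference between the lists was not made.

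**Figure D4:**
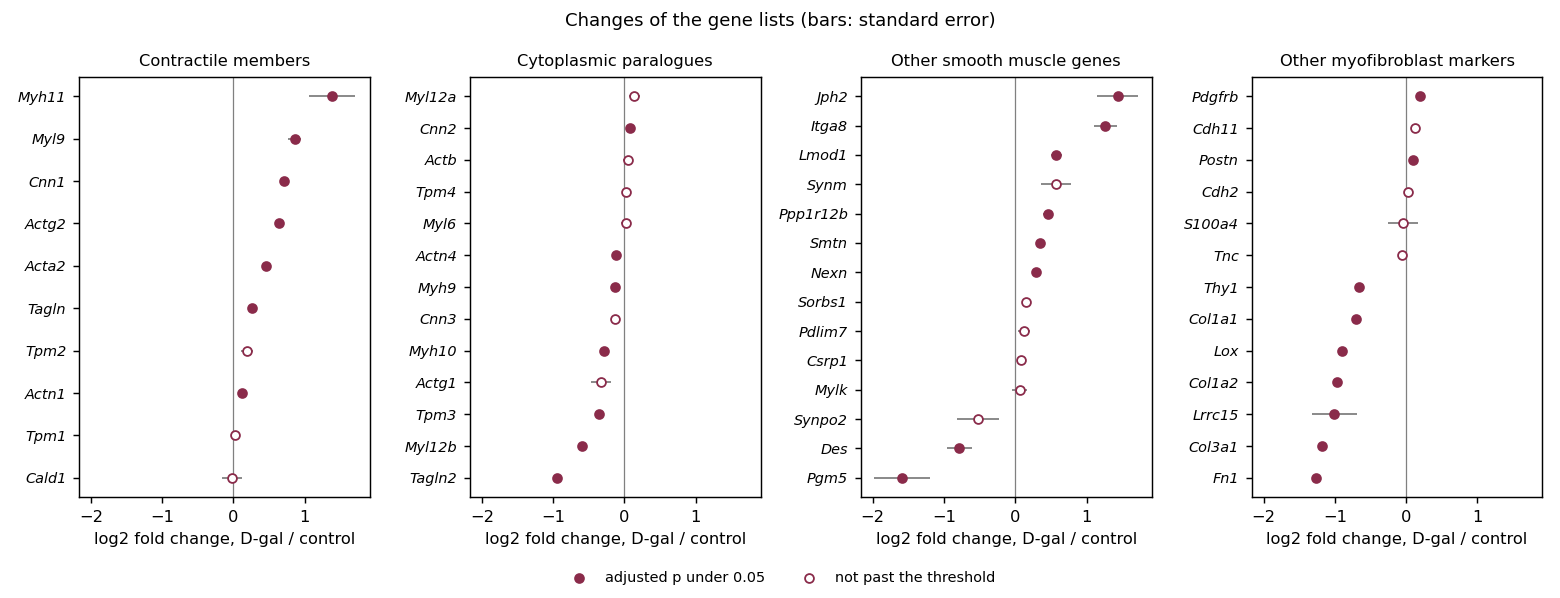
Log2 fold change (D-gal over control, horizontal axis) of every tested gene in 4 lists, with bars for the standard error. Filled points have an adjusted p-value under 0.05, as 34.8% of all genes tested had. Filled points lie right of 0 for all 7 contractile genes past the threshold, and left of 0 for 6 of 7 cytoplasmic paralogues and 7 of 9 other myofibroblast markers.

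The fibroblast label was checked against markers. Pdgfra, Vim and Col1a1 were abundant in every library (Pdgfra with 8307 to 12742 counts), while Lum had at most 1 count. Of 7 fibroblast markers, 6 were tested, 1 was higher and 4 were lower with D-gal in the same edgeR test. Their median log2 fold change was -0.58, and Col1a1 and Vim were among those with the smallest p-values. Of all genes tested, 16.9% were higher and 17.8% lower. Of 12 skeletal muscle markers, 5 had no count in any library, Myod1, Myf5, Pax7, Actn2 and Mymk (Tmem8c in the table), no marker exceeded 50 counts, and neither of the 2 tested was called. Of the 7 pericyte and vascular smooth muscle markers, Abcc9, Kcnj8, Cspg4 and Myocd had at most 8 counts in any library. The other 3 were tested and changed, with Notch3 higher by 0.59 and Mcam by 0.43 and Rgs5 lower by 1.06 on the log2 scale. The summed normalized count of the 7 was 1137 to 1162 under PBS and 1420 to 1619 under D-gal, and its part in the rise of the contractile genes was not tested. Adipocyte markers had at most 1 count, and endothelial markers had summed normalized counts of 50.5 to 53.0 under PBS and 33.7 to 42.6 under D-gal, with none called among the 2 tested. The 4 macrophage markers had summed normalized counts of 67.7 to 282 under PBS and 71.8 to 90.6 under D-gal, and none passed the test.

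Over the 6 libraries, the genes whose log2 normalized counts followed those of Acta2 most closely were Ktn1, Phf20, Cemip, Rab1a and Rassf3, with Pearson's r from 0.997 to 0.999. These libraries share their group difference, so r describes the pattern and carries no test. Among the contractile genes, Actg2 had r = 0.993, a value that 14 tested genes reached or exceeded with Actg2 itself among them, followed by Tagln (0.958), Cnn1 (0.949), Actn1 (0.939), Myl9 (0.908) and Myh11 (0.848). Tpm2 (0.637), Tpm1 (0.570) and Cald1 (-0.077) followed Acta2 less closely.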

How the data were processed

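RNA-seq of 3 control and 3 D-gal libraries of NOR-10 cells was re-analysed. The deposited table gives read counts per gene, which the authors did not normalize, and FPKM values, which the authors scaled by gene length and library total. The study's methods name a small RNA library kit and the labels an RNA-seq kit for total RNA. The labels were followed, and which kit gave the counts is not settled here. The authors trimmed the reads with Trimmomatic after FastQC, and the submitters' processing notes name HISAT2 (version 2.0.4). The counting tool, its strand setting, the genome build and the annotation are not given in the sources used here. Counts were tested with edgeR (version 4.0.16, R 4.3.3) with TMM factors (0.986 to 1.01), filterByExpr and the quasi-likelihood test over 13407 genes, 3 against 3, with Benjamini-Hochberg adjustment. The fits were also run on simulated counts with the same dispersion for all genes and few genes changed. These data differ from that setting, so the run is not used as support here. Differential expression took the limits of the study's methods, 0.05 for the adjusted p-value and 1 for the size of the log2 fold change. No 2 replicates agreed within counting error (chi-square over its degrees of freedom 6.00 to 9.42). Exon lengths, overlaps and shared words of 31 bases came from GENCODE M21 (GRCm38), promoters from RefSeq (GRCm38.p6). Agent doses came from the study's methods. Of the symbols listed, 2 have several rows, and the identifier in GENCODE was used. Genes named were the contractile genes, their paralogues, the 3 smallest p-values of each list, and the 5 closest to Acta2 over the libraries, of which 2 are not reported here. Other genes were named after their values were seen. The contractile genes, the lists and the tests were chosen with earlier results of these data known. Alternatives were DESeq2 (version 1.42.0), RLE factors, a block for the replicate number, no filter, a minimum of 10 counts in all libraries, leaving out each library, limma (version 3.58.1) on log2(FPKM + 1), a threshold of 0.01, other lengths for the shares, and, chosen after seeing the data, library totals without TMM factors.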

Additional observations from a re-analysis of the deposited data

How the results depend on the processing

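The count of contractile genes past the adjusted p-value lay between 6 and 8 with each library left out and was 7 with all libraries. Differentially expressed contractile genes numbered 1, Myh11, and 0 with at least 10 counts in every library, where Myh11 is not tested (edgeR), 0 with limma on log2(FPKM + 1), and 0 at an adjusted p-value under 0.01. At an unadjusted p under 0.05 with the same fold these counts were 0, 0 and 1, and DESeq2 gave 1. At the threshold of 0.01 the light chain regulators past it were 7, of which 1 was higher. Cald1 reversed to 0.0089 with library totals without TMM factors, to 0.0022 with the replicate block, to 0.035 with limma on log2(FPKM + 1) and to 0.19 without control replicate 1, and ranged from -0.14 to 0.19 with each library left out. Actn1 fell short of the threshold without control replicate 3 (0.11) and ranged from 0.092 to 0.14. Acta2, Actg2, Tagln, Cnn1 and Myl9 kept direction and threshold under the 13 alternatives run for them, with log2 fold changes of 0.43 to 0.50, 0.61 to 0.70, 0.23 to 0.29, 0.67 to 0.75 and 0.76 to 0.92. The 7 family shares kept their direction under the 9 alternatives run for them, that of the tropomyosins with differences from 0.264 to 1.18 percentage points with each library left out.

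No pairing of the libraries by replicate number was seen, which does not tell how the cultures were set up. Deviations from the group means of same-numbered libraries correlated at -0.014, -0.0065 and 0.026, and 2 of the 6 libraries correlated best with their own number. The block moved the genes past the adjusted p-value from 4661 to 3982 and changed no call among the contractile genes. Over all genes, 564 were differentially expressed, and 120 with limma on log2(FPKM + 1), where Myh11 had a log2 difference of 0.24. Depth limits Myh11 and Myocd, with 8 to 33 and 0 to 7 counts per library.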
